A study of Homo sapiens with 6 samples.

Results

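The comparison described here sets PEO4 cells carrying SHMT1 shRNA F12 directly against PEO4 cells carrying SHMT1 shRNA F11. It used 4 of the 6 arrays of the study, 2 for each SHMT1 shRNA, taken by their labels, and the other 2 arrays, of cells with the nonspecific (NS) control shRNA, served to show where the control lay. PEO4 is a long-established cell line from a high-grade serous cancer of the ovary, and all 3 groups were populations of this line infected with a lentiviral shRNA and enriched on puromycin. F11 and F12 are different hairpins against the same mRNA, the NS hairpin is the control of both, and the labels give neither a time after infection nor whether the replicates came from separate cultures. The p-values below therefore measure the spread between arrays, which may be technical.

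SHMT1 encodes the cytosolic serine hydroxymethyltransferase, which splits serine into glycine and a methylene group carried by folate. A short hairpin RNA is processed into a small RNA that directs cleavage of mRNAs it pairs with, and mRNAs other than the target can be affected. Cells with different hairpins against a gene are therefore compared with each other as well as with a control hairpin. Total RNA of each sample was hybridized to an Illumina HumanHT-12 V4 bead array, and the values are quantile-normalized intensities on a linear scale. Intensities keep the array's background, so a fold understates the change of a dim gene. In bulk RNA, fewer cells of a type and less RNA per cell cannot be told apart.

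Of 47321 probes, 22962 were above the background limit of 91.6 on at least 2 arrays, and they covered 12848 named genes. The arrays of a group correlated at r = 0.997 for F12, 0.994 for F11 and 0.996 for NS across the tested probes, against 0.988 to 0.991 between F12 and F11 arrays. All 15 markers of high-grade serous ovarian epithelium, PAX8 and WT1 among them, were above background on at least 2 arrays, SOX17 on the F11 arrays alone. Of these, KRT7, KRT8 and CDH1 were called higher with F12 than with F11 and MUC16, SOX17 and WFDC2 lower, and the summed intensity was 21724 to 22532 in F12, 21777 to 22470 in F11 and 21201 to 22500 in NS cells. Of the other cells' markers, 7 of 11 fibroblast, 5 of 12 leukocyte and 1 of 9 endothelial genes were above background. The defining leukocyte gene PTPRC and the endothelial genes PECAM1 and VWF were not. All 12 leukocyte markers on the array, those below background included, summed to 1321 to 1339 in F12, 1452 to 1537 in F11 and 1393 to 1504 in NS cells.

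The targeted gene itself differed between the SHMT1 shRNAs. At its brightest probe SHMT1 had a normalized intensity of 434 and 442 in F12 cells, 291 and 342 in F11 cells and 542 and 544 in NS cells. Every F12 value lay above every F11 value and below both NS values, so F11 cells held the lowest SHMT1 signal. The log2 difference F12 minus F11 was 0.47 (SE 0.0812, adjusted p = 0.0197), with -0.31 for F12 minus NS (adjusted p = 0.214) and -0.78 for F11 minus NS (adjusted p = 0.00536). Leaving out F12 replicate 1 ended that call (adjusted p = 0.142), and so did leaving out F12 replicate 2 (0.158). Both dimmer SHMT1 probes stayed near background and missed the threshold, at 0.24 and 0.00 (adjusted p = 0.0704 and 0.999). The mitochondrial enzyme, coded by SHMT2, differed by -0.16 (adjusted p = 0.331).

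Across the tested genes, 493 were higher with F12 than with F11 (3.84% of 12848) and 559 were lower (4.35%) at an adjusted p under 0.05 at any of their probes, so that 1052 genes (8.19%) separated the SHMT1 knockdown populations. Of the 394 called genes with several tested probes, every tested probe passed in 71, and all probes shared a sign in 333. The differences were mostly small. The median called gene was 1.34-fold higher or 1.34-fold lower, 18 genes were higher and 25 lower by 2-fold or more, and the median log2 difference over all genes was 0.00. The counts hung most on the F12 arrays: without F12 replicate 1, 92 genes were called higher and 109 lower, and without F12 replicate 2, 96 and 103. Of the 1052 genes, 165 were called in the same direction in each of the 6 fits that left out 1 array, 77 of them higher and 88 lower with F12, and the text says of a gene that it held where this was so at the probe described. At an unadjusted p under 0.05, 1620 genes (12.6%) were higher and 1785 (13.9%) lower, the shares against which the unadjusted counts of the gene lists below are to be read. Separate arrays alone were common, since both F12 arrays lay above both F11 arrays in 24.6% of the tested genes and below both in 26.9%.

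**Figure D1:**
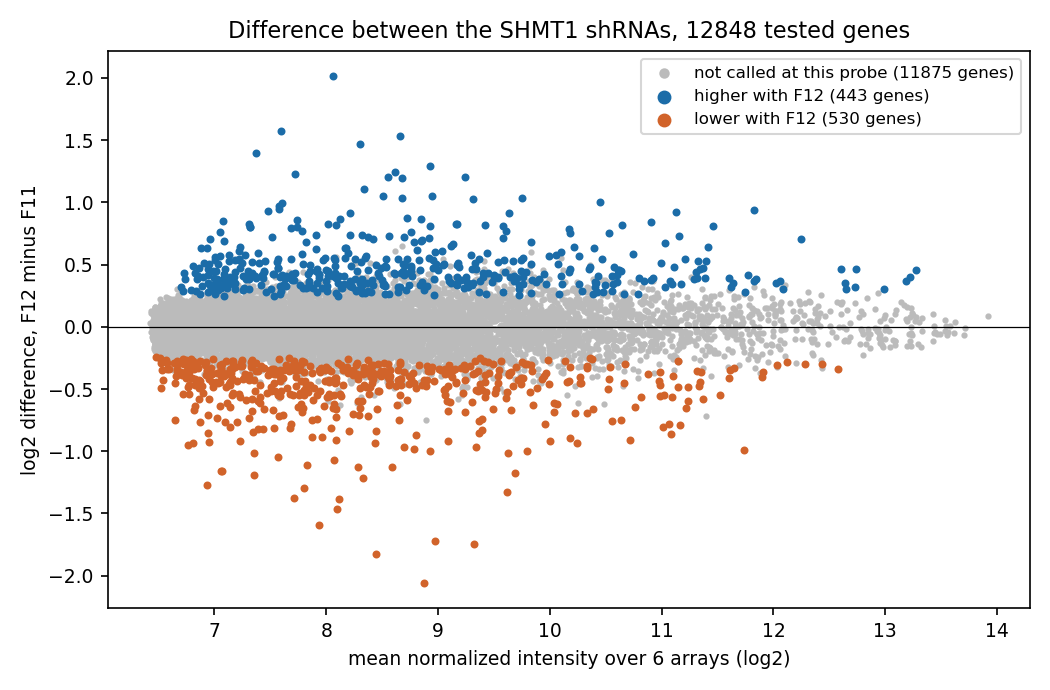
Each point is 1 of 12848 tested genes at its brightest probe, with the mean normalized intensity over the 6 arrays on the x axis (log2) and the log2 difference F12 minus F11 on the y axis. Colours mark the 443 genes called higher (3.45%) and the 530 called lower (4.13%) with F12 at that probe, which reach 2.01 and -2.05 and occur from dim to bright genes.

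The 12 genes that were higher and the 12 that were lower with F12 by the widest margin were taken at their brightest probe. Other tested probes of REG3G, PTPRR, SSX4, ZXDA, SCARA3, MAG, VNN3P and TOX2 are not described here. REG3G, a secreted lectin that binds bacterial walls, had 466 and 439 in F12 cells, 114 and 110 in F11 cells and 240 and 231 in NS cells, a 4.04-fold difference (log2 2.01, SE 0.0605, adjusted p = 7.42e-05). PTPRR, a tyrosine phosphatase that acts on ERK kinases, had 281 and 288 in F12, 94.3 and 97.4 in F11 and 195 and 204 in NS cells (log2 1.57, adjusted p = 0.000118). In both genes the F12, F11 and NS arrays formed 3 separate levels with NS in the middle. SSX1, a cancer-testis antigen coded on the X chromosome, had 545 and 548 in F12, 177 and 200 in F11 and 428 and 530 in NS cells (log2 1.54, adjusted p = 0.000586). Its relative SSX4 had 237 and 303, 111 and 118, and 245 and 254 in F12, F11 and NS cells (log2 1.23, adjusted p = 0.00154), and since the SSX genes are near-identical their probes may share signal. For both SSX genes the NS arrays lay near the F12 arrays and far above F11.

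AJAP1, a protein of adherens junctions, had 467 and 478 in F12, 172 and 170 in F11 and 318 and 284 in NS cells. It was higher with F12 at each of its 3 tested probes, by 1.47, 1.44 and 0.57 on the log2 scale (adjusted p = 0.000208, 0.000363 and 0.00297). PNOC, the precursor of the neuropeptide nociceptin, had 292 and 264 in F12, 106 and 105 in F11 and 114 and 116 in NS cells (log2 1.40, adjusted p = 0.000208), so that F12 alone stood high. The other genes of this group were the phosphate transporter SLC20A2 (1.30), the zinc finger gene ZXDA (1.24), FCRLB (1.20), the scavenger receptor SCARA3 (1.20), the claudin CLDN16 (1.19) and FAM107A (1.11), with adjusted p between 0.000362 and 0.00241. CLDN16 codes for a tight junction protein and had 622 and 534 in F12, 236 and 270 in F11 and 367 and 432 in NS cells. The calls of these 12 genes held.

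Of the 12 genes that were lower with F12, MAG, the myelin-associated glycoprotein, which binds sialic acid, had 219 and 207 in F12 cells, 987 and 791 in F11 cells and 331 and 279 in NS cells, a 4.16-fold lower level (log2 -2.05, SE 0.12, adjusted p = 0.000388). SEMA3A, a secreted guidance factor, had 179 and 172 in F12, 589 and 655 in F11 and 222 and 280 in NS cells (log2 -1.83, adjusted p = 0.000432). Here F11 was the population that stood apart and NS lay close to F12. SERPINE2, which inhibits thrombin and urokinase, had 288 and 342 in F12, 1099 and 1010 in F11 and 609 and 495 in NS cells (log2 -1.75, adjusted p = 0.000555). SCD, the desaturase that makes oleate from stearate, had 247 and 268 in F12, 874 and 821 in F11 and 422 and 389 in NS cells (log2 -1.72, adjusted p = 0.000191). Both had NS between the SHMT1 shRNAs with clear gaps on either side.

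SFRP1, a secreted WNT antagonist, differed by -1.46 (adjusted p = 0.000191), with 161 and 171 in F12, 468 and 448 in F11 and 191 and 202 in NS cells. COCH, an extracellular protein of the inner ear, differed by -1.39, FAM174B by -1.37, the vanin pseudogene VNN3P by -1.30 and the HMG-box factor TOX2 by -1.22 (adjusted p = 0.000363, 0.000362, 0.000432 and 0.000378). SOX17, a transcription factor of endoderm and of the Mullerian tract, had 83.5 and 81.2 in F12 cells, 197 and 202 in F11 cells and 83.0 and 85.7 in NS cells. It was not above background in F12 or NS cells and was at least 2.17-fold lower with F12 than with F11 (SOX17 adjusted p = 0.000191). HP and FOS complete this group of 12 and are described with their pathways, and all 12 calls held. Ranked at any probe the group would also hold ALKAL2, a ligand of the receptor ALK, which differed by -1.16 at its brightest probe and by -1.29 at its other probe (adjusted p = 0.000363 and 0.000208). Of the 24 genes, 20 had both NS arrays between the F12 and F11 arrays. After a background correction (normexp) differences widened most for genes that were dim in 1 population, to 2.92 for REG3G, 2.66 for PTPRR, 2.26 for PNOC, 1.93 for SSX4, -1.94 for VNN3P and -2.65 for SOX17.

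**Figure D2:**
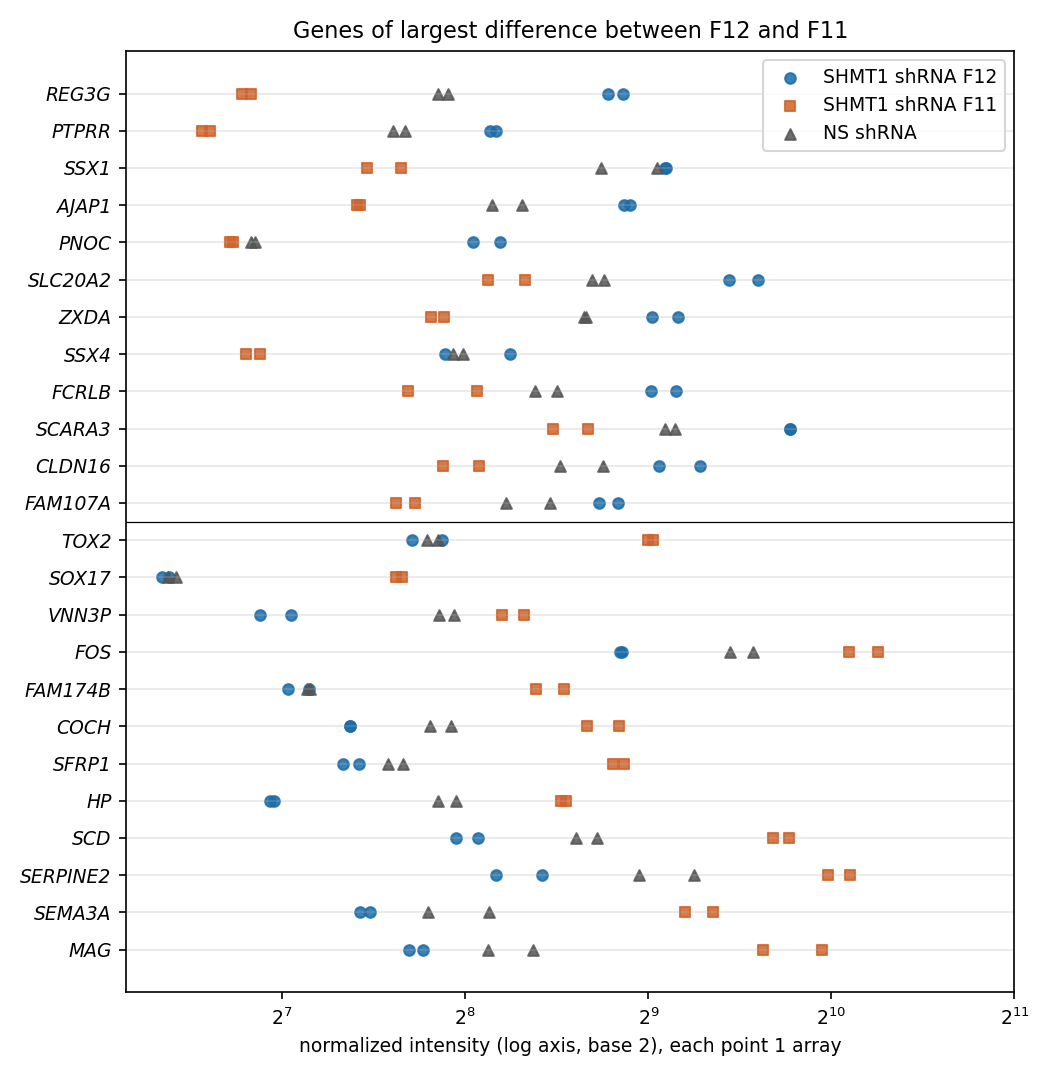
Normalized intensity of each array (log axis) for the 12 genes highest and the 12 genes lowest with F12 relative to F11, at the brightest probe. F12 and F11 arrays are apart in each gene, and NS arrays lie between them in 20 genes and overlap F12 in SSX4, TOX2, SOX17 and FAM174B.

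Interferon-stimulated genes were the largest group that was lower with F12. Interferons bind receptors that activate STAT factors, and these switch on antiviral enzymes, membrane restriction factors and antigen-presentation genes, many of them through the interferon-stimulated response element, a repeat of GAAA. Of 48 tested genes of the list, 17 were lower (35.4%, against 4.35% of all genes) and 2 were higher with F12 (4.17%, against 3.84%), and the list's median log2 difference was -0.26. Against NS the list's median was -0.22 for F12 and 0.03 for F11. The summed level of all 12 leukocyte markers on the array, those below background included, was lower in F12 cells as well, as given above. None of the 5 above background (CD14, CD68, CD79A, ITGAM and CD8A) was called, and their part in this result was not tested. The count was 6 without F12 replicate 1 and 4 without F12 replicate 2, with none higher in either fit, and 12 without NS replicate 1 or 2, while the median stayed between -0.30 and -0.20 in the fits that left out 1 array.

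Among the antiviral enzymes, MX1, a GTPase that blocks virus replication, had 2224 and 2324 in F12 cells, 4523 and 4494 in F11 cells and 3562 and 3402 in NS cells, a 1.98-fold lower level (log2 -0.99, SE 0.0581, adjusted p = 0.000389). OAS2, which makes the 2-5A signal that activates RNase L, had 181 and 189 in F12, 343 and 352 in F11 and 291 and 281 in NS cells (log2 -0.91, adjusted p = 0.00046), and its dimmer probe gave -0.23 (adjusted p = 0.0707). For both genes NS lay nearer to F11. OAS3 had 475 and 463 in F12, 760 and 668 in F11 and 678 and 753 in NS cells (log2 -0.60, adjusted p = 0.00824). XAF1, a pro-apoptotic interferon target, had 262 and 244 in F12, 371 and 393 in F11 and 324 and 329 in NS cells (log2 -0.60, adjusted p = 0.00295), with -0.17 at its dimmer probe (adjusted p = 0.284).

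Among the membrane restriction factors, IFITM1 had 1679 and 1563 in F12, 2583 and 3025 in F11 and 2477 and 2471 in NS cells (log2 -0.79, adjusted p = 0.00297). BST2, or tetherin, which holds budding virions at the cell surface, had 171 and 151 in F12, 255 and 287 in F11 and 287 and 254 in NS cells (log2 -0.75, adjusted p = 0.00613). In BST2 the F11 and NS arrays overlapped and F12 alone was low. IFI44L had 288 and 297 in F12, 515 and 553 in F11 and 462 and 564 in NS cells (log2 -0.87, adjusted p = 0.00364), with -0.02 at its dimmer probe (adjusted p = 0.921). IFI6, a small mitochondrial protein, was lower at both probes, by -0.80 and -1.10 (adjusted p = 0.0123 and 0.00202). MX1, OAS2 and XAF1 held, as did IFI6 at its dimmer probe. The calls of OAS3 and IFI44L were lost without either F12 array (adjusted p up to 0.0958 and 0.0592), those of IFITM1 and BST2 when F12 replicate 2 was left out (0.0524 and 0.0747), and that of IFI6 at its brighter probe without either F12 array (up to 0.11).

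The remaining lower genes were IFI44, GBP1, ISG15, PARP12, PARP9, IFI35, IFITM3, USP18 and SP110, by -0.26 to -0.51 at the brightest probe, and IFITM1 and IFITM3 have near-identical copies. The pair that went the other way were IFIT2 and OASL. IFIT2, which binds viral RNA, had 774 and 881 in F12, 665 and 589 in F11 and 905 and 971 in NS cells (log2 0.40, adjusted p = 0.0478), and OASL differed by 0.33 (adjusted p = 0.0429). In both, NS lay above F12 and F11, and both calls were lost in 5 of the 6 fits that left out 1 array (adjusted p up to 0.288 and 0.231). Limma called none of 19 tested genes of RNA interference and double-stranded RNA sensing, and at an unadjusted p under 0.05 it gave 2 higher and 3 lower. DHX58, a sensor of double-stranded RNA, had the lowest adjusted p of them, with 150 and 146 in F12, 175 and 174 in F11 and 164 and 153 in NS cells (log2 -0.24, adjusted p = 0.0652).

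The promoters of the lower interferon genes are shown because their shared element can be read in them. Promoters of 250 bases before to 50 after the transcript start were taken from RefSeq (GRCh38.p14), and the string GAAA, any 2 bases and GAAA again was searched on both strands, overlapping matches included. It occurred in 11 of 15 promoters of genes that were lower with F12 (73.3%) and in 14 of 26 promoters of list members that were not called (53.8%), against 290 of 10228 promoters of tested genes (2.84%) and 996 of 27305 promoters in all (3.65%). A match is a string of letters and shows no binding. Stretches upstream of the start are given 5′ to 3′ on the gene's strand with matches in capitals for IFI44L (chr1:78620254-78620414, plus strand), IFI6 (chr1:27672246-27672378, minus strand), BST2 (chr19:17405715-17405790, minus strand, 2 overlapping matches) and OAS3 (chr12:112938432-112938473, plus strand).
IFI44L: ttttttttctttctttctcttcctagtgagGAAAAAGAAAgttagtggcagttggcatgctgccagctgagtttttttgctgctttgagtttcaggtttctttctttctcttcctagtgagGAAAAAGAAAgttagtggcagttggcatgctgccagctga
IFI6: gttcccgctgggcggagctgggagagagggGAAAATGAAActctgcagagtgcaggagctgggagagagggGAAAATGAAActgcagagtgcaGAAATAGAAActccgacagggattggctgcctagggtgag
BST2: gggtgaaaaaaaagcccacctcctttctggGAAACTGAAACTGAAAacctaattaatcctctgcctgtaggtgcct
OAS3: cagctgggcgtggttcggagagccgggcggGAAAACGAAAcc

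MHC class I molecules present peptides that the proteasome makes and TAP transports. Of 19 tested genes of this pathway, 6 were lower (31.6%, against 4.35% of all genes). Limma called none higher (2 at an unadjusted p under 0.05), and the median log2 difference was -0.12. TAP1, a subunit of the peptide transporter, had 635 and 694 in F12 cells, 952 and 957 in F11 cells and 731 and 735 in NS cells (log2 -0.52, adjusted p = 0.0049). HLA-B, a class I heavy chain, had 703 and 571 in F12, 936 and 945 in F11 and 751 and 763 in NS cells (log2 -0.57, adjusted p = 0.018). ERAP2, which trims peptides, had 2282 and 2147 in F12, 3633 and 3006 in F11 and 2547 and 2241 in NS cells (log2 -0.58, adjusted p = 0.0231). In all 3 genes NS lay nearer to F12 than to F11. HLA genes have similar sequences, so their probes may share signal: HLA-F was called only at its dimmer probe (log2 -0.49, adjusted p = 0.00653) and differed by -0.12 at the brighter (adjusted p = 0.577). No call of this list held, since 1 gene was lower without F12 replicate 1 and 1 without F12 replicate 2, and TAP1 was lost without the first (adjusted p = 0.0593) and HLA-B without the second (0.0745).

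The calls among cytokines and targets of NF-kB all ran toward lower levels with F12. NF-kB factors are held in the cytoplasm by inhibitors such as NFKBIA until a signal degrades these, and they then switch on chemokines, survival genes and their own inhibitors. Of 37 tested genes, 11 were lower (29.7%, against 4.35% of all genes) and limma called none higher (2 at an unadjusted p under 0.05). The list's median log2 difference was -0.09. The count of lower genes was 3 without F12 replicate 1 and 4 without F12 replicate 2.

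Among the chemokines, CCL20, which attracts CCR6-bearing lymphocytes, had 119 and 111 in F12 cells, 198 and 193 in F11 cells and 135 and 129 in NS cells (log2 -0.77, SE 0.0626, adjusted p = 0.00121). CXCL2, a neutrophil attractant, had 120 and 136 in F12, 199 and 209 in F11 and 166 and 137 in NS cells (log2 -0.68, adjusted p = 0.0125). CXCL8, or interleukin 8, had 648 and 681 in F12, 1148 and 997 in F11 and 1433 and 1411 in NS cells (log2 -0.69, adjusted p = 0.00379). The other tested probe of CXCL8 is not described here. For CCL20 and CXCL2 the NS arrays lay toward F12, whereas for CXCL8 they lay above both SHMT1 shRNAs. CXCL10 had 87.3 and 93.2 in F12 cells, near background, 116 and 114 in F11 and 98.7 and 99.0 in NS cells (log2 -0.36, adjusted p = 0.0173). IL6 was not called (log2 0.22, adjusted p = 0.108), with 148 and 148 in F12, 122 and 133 in F11 and 200 and 192 in NS cells.

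Among the enzymes, PTGS2, the inducible cyclooxygenase, had 134 and 148 in F12, 360 and 258 in F11 and 232 and 228 in NS cells (log2 -1.11, adjusted p = 0.00629). SOD2, the mitochondrial superoxide dismutase, had 539 and 459 in F12, 961 and 1047 in F11 and 880 and 861 in NS cells (log2 -1.01, SE 0.0871, adjusted p = 0.00134). PTGS2 and SOD2 were also lower at their dimmer probes, by -0.67 and -0.70 (adjusted p = 0.00158 and 0.0066). Among the feedback inhibitors, NFKBIA had 1741 and 1576 in F12, 2218 and 2354 in F11 and 2127 and 2171 in NS cells (log2 -0.46, adjusted p = 0.0117). TNFAIP3, a ubiquitin-editing inhibitor of NF-kB, had 647 and 604 in F12, 816 and 887 in F11 and 562 and 605 in NS cells (log2 -0.45, adjusted p = 0.0166), with NS at the level of F12. The subunit NFKB2 differed by -0.47 (adjusted p = 0.0185). CCL20 and SOD2 held, and PTGS2 held at its dimmer probe. CXCL8 lost the call without F12 replicate 1 (adjusted p = 0.0615), and CXCL2, CXCL10, NFKBIA, TNFAIP3, NFKB2 and the brighter PTGS2 probe lost it without either F12 array (adjusted p up to 0.161).

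The promoters of 4 of these genes are shown for the NF-kB motif. GGG, any 2 bases and then TTTCC, searched on both strands, occurred in 6 of 11 promoters of the lower genes (54.5%) and in 6 of 16 promoters of list members that were not called (37.5%), against 226 of 10228 promoters of tested genes (2.21%) and 523 of 27305 promoters in all (1.92%). The stretches, with matches in capitals, lie upstream of the start of CCL20 (chr2:227813733-227813802, plus strand), CXCL2 (chr4:74099234-74099303, minus strand), NFKBIA (chr14:35404791-35404860, minus strand) and TNFAIP3 (chr6:137867162-137867243, plus strand), in GRCh38.p14.
CCL20: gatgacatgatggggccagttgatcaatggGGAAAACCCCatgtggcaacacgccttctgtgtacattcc
CXCL2: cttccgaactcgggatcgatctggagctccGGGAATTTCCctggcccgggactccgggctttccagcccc
NFKBIA: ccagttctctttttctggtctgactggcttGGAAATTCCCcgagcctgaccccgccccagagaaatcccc
TNFAIP3: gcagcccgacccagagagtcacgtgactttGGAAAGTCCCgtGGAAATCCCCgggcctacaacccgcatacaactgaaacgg

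Of the lists with at least 10 tested genes, secreted acute-phase and antimicrobial genes had the highest share lower with F12. Of 22 tested genes, 10 were lower (45.5%, against 4.35% of all genes). Limma called none higher (1 at an unadjusted p under 0.05), and the median log2 difference was -0.26. HP, or haptoglobin, which binds free hemoglobin, had 122 and 124 in F12 cells, 374 and 368 in F11 cells and 231 and 247 in NS cells, a 3.02-fold lower level (log2 -1.59, SE 0.0594, adjusted p = 0.000118). CFB, a protease of the alternative complement pathway, had 1185 and 1217 in F12, 2125 and 2393 in F11 and 1473 and 1721 in NS cells (log2 -0.91, adjusted p = 0.00238). NS lay between F12 and F11 in both. PI3, or elafin, an inhibitor of neutrophil elastase, had 1680 and 1424 in F12, 2606 and 2700 in F11 and 2252 and 2211 in NS cells (log2 -0.78, adjusted p = 0.00297). SAA1, serum amyloid A, had 932 and 912 in F12, 1429 and 1549 in F11 and 1420 and 1482 in NS cells (log2 -0.69, adjusted p = 0.00177), with -1.11 and -0.16 at its other probes (adjusted p = 0.000598 and 0.28). For SAA1 the F11 and NS arrays overlapped, and since SAA1 and SAA2 are near-identical their probes may share signal.

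CP, the copper-carrying ferroxidase ceruloplasmin, was not above background in F12 cells (89.2 and 89.6) and had 134 and 144 in F11 and 110 and 115 in NS cells, at least 1.51-fold lower with F12 (adjusted p = 0.00205). WFDC2, which codes for the ovarian cancer marker HE4, had 1846 and 1561 in F12, 2700 and 2307 in F11 and 1876 and 1903 in NS cells (log2 -0.56, adjusted p = 0.0243). SAA2, SAA4, C1S and SERPINA3 differed by -0.47, -0.61, -0.41 and -0.34. HP, CFB, PI3, SAA1 and CP held. The list counted 6 lower genes without F12 replicate 1 and 5 without F12 replicate 2, and WFDC2 was among those lost (adjusted p up to 0.171).

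Immediate early factors, which link growth signals to transcription, were lower with F12 in 4 of 24 tested genes (16.7%, against 4.35% of all genes). FOS, a subunit of AP-1, had 459 and 464 in F12 cells, 1219 and 1096 in F11 cells and 697 and 762 in NS cells, a 2.50-fold lower level (log2 -1.32, SE 0.0746, adjusted p = 0.000363). EGR1, a zinc finger factor, had 1193 and 1186 in F12, 2132 and 1895 in F11 and 1301 and 1348 in NS cells (log2 -0.76, adjusted p = 0.00183). FOS and EGR1 held, and both had their highest level in F11 cells. MYC differed by -0.48 (adjusted p = 0.0194) and JUNB by -0.38 (adjusted p = 0.0288), and both lost the call without either F12 array (adjusted p up to 0.166 and 0.19). Limma called no gene of this list higher, and 3 were higher at an unadjusted p under 0.05. Among the MAPK feedback genes, which FOS and EGR1 often accompany, DUSP5 was higher with F12 (log2 0.51, adjusted p = 0.00505, and 0.0703 without F12 replicate 1), and DUSP2, ETV5 and RASD1 were lower by -0.35, -0.27 and -0.34 (adjusted p = 0.0196, 0.0339 and 0.0251). That made 1 higher (4.76%, against 3.84% of all genes) and 3 lower (14.3%, against 4.35%) of 21 tested MAPK feedback genes. The call of ETV5 was lost in all 6 fits that left out 1 array, that of RASD1 in 5 and that of DUSP2 without either F12 array (adjusted p up to 0.216, 0.183 and 0.15).

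**Figure D3:**
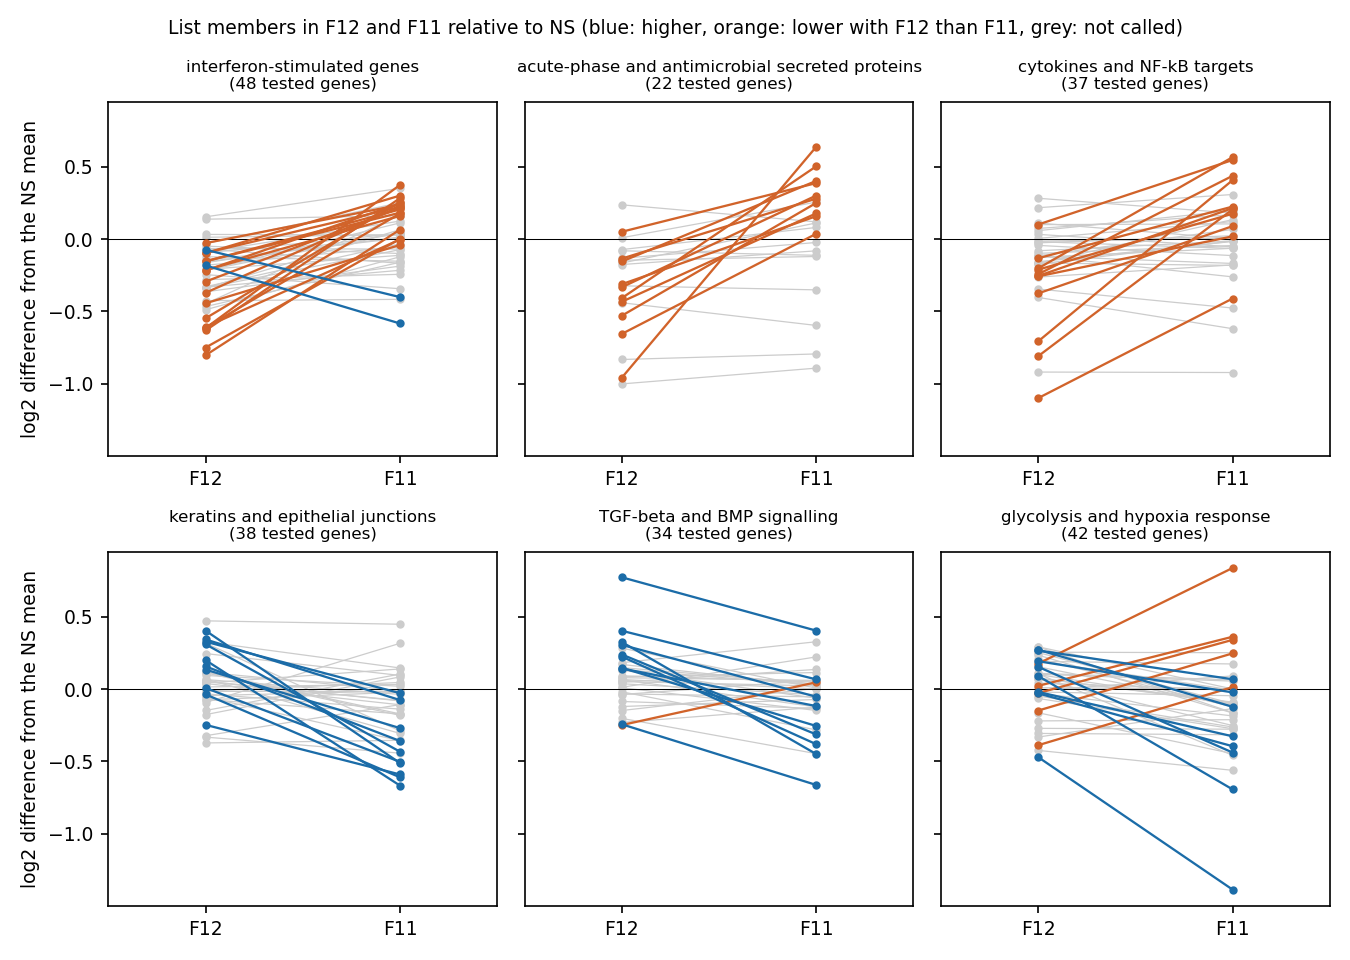
Each line joins 1 gene's log2 difference from the NS mean in F12 (left) and in F11 (right), at the brightest probe, for 6 gene lists, with genes called higher with F12 than with F11 in blue, lower in orange and the others in grey. In the upper lists called genes mostly slope up toward F11, with MX1 at -0.61 in F12 and 0.37 in F11, and in the lower lists most slope down, with CGN at 0.40 in F12 and -0.51 in F11. A gene called at a dimmer probe keeps its colour.

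Keratins and junction proteins hold epithelial sheets together. Of 38 tested genes, 10 were higher (26.3%, against 3.84% of all genes) and limma called none lower (4 at an unadjusted p under 0.05), and the median log2 difference was 0.13. CGN, or cingulin, a scaffold of tight junctions, had 1079 and 1003 in F12 cells, 546 and 559 in F11 cells and 740 and 838 in NS cells, a 1.88-fold higher level (log2 0.91, SE 0.0765, adjusted p = 0.00129). PKP2, a desmosomal plakophilin, had 402 and 394 in F12, 225 and 252 in F11 and 307 and 336 in NS cells (log2 0.74, adjusted p = 0.00262). CGN and PKP2 held. KRT4, a keratin of stratified epithelium, had 567 and 575 in F12, 269 and 366 in F11 and 475 and 520 in NS cells (log2 0.87, adjusted p = 0.013).

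KRT8, a keratin of simple epithelium, had 1165 and 1097 in F12, 807 and 717 in F11 and 1096 and 1228 in NS cells (log2 0.57, adjusted p = 0.0114). KRT7 had 897 and 849 in F12, 682 and 695 in F11 and 1071 and 1003 in NS cells (log2 0.34, adjusted p = 0.0237). In both keratins F11 was the low population, and NS lay with F12 or above it. CDH1, or E-cadherin, had NS beside F11 instead, with 1597 and 1569 in F12, 1185 and 1292 in F11 and 1196 and 1331 in NS cells (log2 0.36, adjusted p = 0.0383), so that F12 alone was high. The desmosomal and junctional genes JUP, DSC2, TJP1 and KRT80 were higher by 0.42, 0.51, 0.40 and 0.51. Without F12 replicate 1 or 2 the list counted 2 higher genes, and the calls of KRT4, KRT7, KRT8 and CDH1 were among those lost (adjusted p up to 0.224).

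VIM and SPARC, genes of mesenchymal cells, were also higher with F12. VIM, the intermediate filament vimentin, had 501 and 548 in F12 cells, 249 and 264 in F11 cells and 429 and 472 in NS cells, a 2.04-fold higher level (log2 1.03, SE 0.0754, adjusted p = 0.000734), and its other probe gave 0.99 (adjusted p = 0.00046). SPARC, a matrix protein, had 552 and 566 in F12, 345 and 344 in F11 and 485 and 490 in NS cells (log2 0.70, adjusted p = 0.000947). Both held, and F11 was the low population in both. ACTA2, smooth muscle actin, went the other way, with 194 and 206 in F12, 250 and 266 in F11 and 241 and 252 in NS cells (log2 -0.37, adjusted p = 0.0208, and up to 0.166 without an F12 array), and was the single called gene of the fibroblast markers. The list of matrix and mesenchymal genes, which also holds CDH1, had 5 of 41 tested genes higher (12.2%, against 3.84% of all genes). In it 2 were lower (4.88%, against 4.35%), COL4A1 and COL6A1, and the median was 0.05. COL4A1 was not above background in F12 cells and was at least 1.31-fold lower than in F11 cells (adjusted p = 0.00531, and up to 0.0742 without an F12 array).

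TGF-beta and BMP signalling genes were higher with F12 in 9 of 34 tested genes (26.5%, against 3.84% of all genes). They were lower in 1 (2.94%, against 4.35%), with a median log2 difference of 0.11. These ligands signal through receptor kinases to SMAD factors, which switch on feedback genes. The receptor TGFBR2 had 611 and 590 in F12 cells, 376 and 415 in F11 cells and 493 and 537 in NS cells (log2 0.60, adjusted p = 0.00531). PMEPA1, a target gene that dampens the pathway, had 962 and 1000 in F12, 534 and 617 in F11 and 776 and 791 in NS cells (log2 0.77, SE 0.0779, adjusted p = 0.00238). In both, NS lay between the SHMT1 shRNAs. FSTL1, a secreted binding protein, differed by 0.55 (adjusted p = 0.00281), the matrix target TGFBI by 0.40 (adjusted p = 0.0199), the inhibitory SMAD6 and SMAD7 by 0.36 and 0.34 and the shared SMAD4 by 0.26, while GDF15 was lower by -0.30. PMEPA1 held. Without F12 replicate 1 there were 2 higher genes and without F12 replicate 2 there was 1, without NS replicate 1, NS replicate 2 or F11 replicate 1 there were 5, and the call of TGFBR2 ended without either F12 array (adjusted p up to 0.0741) and that of FSTL1 without F12 replicate 2 (0.0505).

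The urokinase system, which cleaves plasminogen at the cell surface, differed at both the protease and its inhibitor. PLAU, urokinase itself, had 1071 and 1004 in F12 cells, 475 and 538 in F11 cells and 998 and 1089 in NS cells (log2 1.04, SE 0.0815, adjusted p = 0.00107). Its NS arrays overlapped F12, so F11 alone was low, and PLAU and the inhibitor SERPINE2, which was lower with F12 as given above, both held. S100A10, which with annexin A2 binds plasminogen, had 7174 and 6945 in F12, 5074 and 5143 in F11 and 6640 and 6360 in NS cells (log2 0.47, adjusted p = 0.0053). SERPINB7, SERPINB8 and ANXA2 were higher by 0.72, 0.44 and 0.30. Of 11 tested genes on this list of plasminogen activation and serpins, 5 were higher (45.5%) and 2 lower (18.2%), with a median of 0.40. Of all genes, 3.84% were higher and 4.35% lower. PLAU and SERPINE2 were the members left without either F12 array.

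Glucose transporters and glycolysis genes were higher with F12 in 8 of 42 tested genes of the glycolysis and hypoxia list (19.0%, against 3.84% of all genes). Members of the list were lower in 5 (11.9%, against 4.35%), and 34 of the 42 had a positive difference, with a median of 0.19. SLC2A1, the transporter GLUT1, had 1471 and 1284 in F12 cells, 791 and 807 in F11 cells and 1273 and 1310 in NS cells (log2 0.78, adjusted p = 0.00202). SLC2A3, the transporter GLUT3, had 304 and 306 in F12, 158 and 166 in F11 and 409 and 437 in NS cells (log2 0.91, SE 0.0615, adjusted p = 0.00053). Both transporters were lowest in F11 cells and held. Among the enzymes, LDHA, lactate dehydrogenase, had 9911 and 10064 in F12, 7395 and 8139 in F11 and 10337 and 10064 in NS cells (log2 0.36, adjusted p = 0.0226), but 0.09 and 0.18 at its other probes (adjusted p = 0.721 and 0.294). HK2, hexokinase 2, differed by 0.59 (adjusted p = 0.0238), and its dimmer probe by -0.07 (adjusted p = 0.68).

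The lower members were HK1, PFKM, ENO2, DDIT4 and CA12. CA12, a carbonic anhydrase of the cell surface, had 246 and 225 in F12 cells, 347 and 398 in F11 cells and 210 and 207 in NS cells (log2 -0.66, adjusted p = 0.0054). HK1 differed by -0.37 and PFKM, the muscle phosphofructokinase, by -0.34, and for these and CA12 the NS arrays lay at the level of F12 or below it. Without F12 replicate 1 the list counted 2 higher and 1 lower, without F12 replicate 2 it counted 2 and 0, without either NS array 6 and 3, without F11 replicate 1 4 and 3, and after normexp 3 and 2, with CA12 (adjusted p = 0.0726), LDHA, HK2, HK1 and PFKM among those lost (adjusted p up to 0.267).

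Growth factor genes moved in both directions. Of 36 tested receptor tyrosine kinases, ligands and binding proteins, 8 were higher (22.2%) and 4 lower (11.1%) with F12, against 3.84% and 4.35% of all genes. The receptor EGFR had 168 and 175 in F12 cells, 268 and 259 in F11 cells and 217 and 227 in NS cells (log2 -0.62, adjusted p = 0.00193), with -0.04 at its probe near background (adjusted p = 0.799). HBEGF, a ligand of EGFR, had 471 and 476 in F12, 323 and 327 in F11 and 395 and 398 in NS cells (log2 0.54, adjusted p = 0.00214). For receptor and ligand alike NS lay between. The insulin-like growth factor binding proteins split: IGFBP2 had 116 and 109 in F12, 193 and 202 in F11 and 107 and 117 in NS cells (log2 -0.81, adjusted p = 0.00134), whereas IGFBP3 was higher at both probes by 0.55 and 0.65 (adjusted p = 0.00371 and 0.00176) and IGFBP6 by 0.64 (adjusted p = 0.00448). EGFR, HBEGF and IGFBP2 held, as did IGFBP3 at its dimmer probe. IGFBP6 was lost without F12 replicate 1 (adjusted p = 0.0663), and the list counted 2 higher and 2 lower genes without that array, 4 and 2 without F12 replicate 2 and 5 and 3 without F11 replicate 1.

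**Figure D4:**
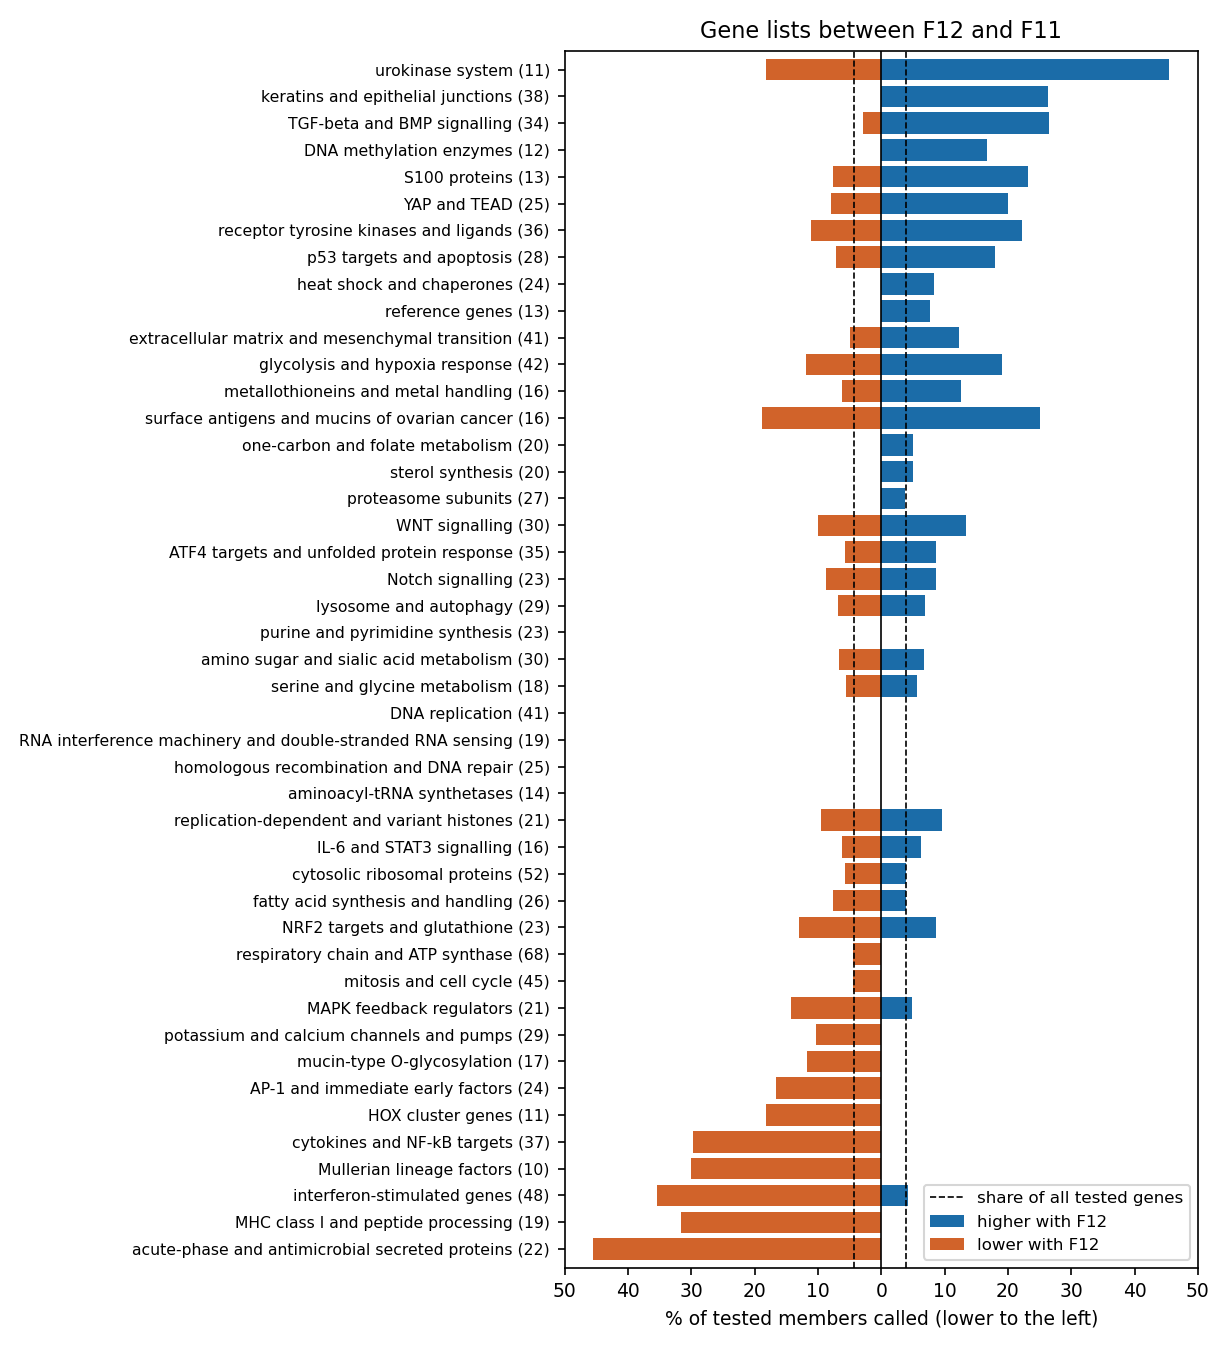
Share of the tested members of each gene list with at least 10 tested genes (number in brackets) that were called higher with F12 than with F11 (right, blue) or lower (left, orange), ordered by the share higher minus the share lower. Dashed lines mark the shares over all tested genes, 3.84% higher and 4.35% lower, and the acute-phase (45.5%) and interferon (35.4%) lists reach furthest left.

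The shares called in the metabolic neighbourhood of SHMT1 are to be read against 3.84% higher and 4.35% lower of all tested genes. Of 20 tested folate-cycle genes SHMT1 was the single one called (5%). Of 18 serine and glycine genes 1 was higher and 1 lower (5.56% each). PSAT1, an aminotransferase of serine synthesis, had 666 and 622 in F12 cells, 417 and 406 in F11 cells and 607 and 602 in NS cells (log2 0.65, adjusted p = 0.00179). GLDC, the glycine decarboxylase, had 210 and 239 in F12, 385 and 419 in F11 and 248 and 266 in NS cells (log2 -0.84, adjusted p = 0.0022). Both held, and in both NS lay between and nearer to F12. Of 23 purine and pyrimidine synthesis genes limma called none (2 higher and 3 lower by an unadjusted p under 0.05).

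Genes of sugar chains were called in both directions. Of 30 amino sugar and sialic acid genes 2 were higher and 2 lower (6.67% each, against 3.84% and 4.35% of all genes). At an unadjusted p under 0.05, 3 were higher and 3 lower (10% each, against 12.6% and 13.9%). ST6GALNAC4, a sialyltransferase, had 255 and 238 in F12 cells, 367 and 434 in F11 cells and 254 and 263 in NS cells (log2 -0.70, adjusted p = 0.00582, and up to 0.0777 without an F12 array), and ST6GAL1 differed by -0.47 (adjusted p = 0.0174, and up to 0.142). NAGK and UGP2 were each higher by 0.35. GALNT9, which starts mucin-type sugar chains, had 134 and 131 in F12, 218 and 222 in F11 and 125 and 123 in NS cells (log2 -0.73, adjusted p = 0.00081) and held, while its dimmer probes gave -0.19 and -0.12. For ST6GALNAC4 and GALNT9, F11 alone stood high.

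Among Mullerian lineage factors SOX17, FOXA2 and PGR were lower with F12 (30%, against 4.35% of all genes). None of the 10 tested genes was called higher (2 at an unadjusted p under 0.05). SOX17 and PGR were above background on the F11 arrays alone. A call of either could therefore hardly be other than lower with F12. PGR was not above background in F12 cells and was at least 1.07-fold lower there than in F11 cells (adjusted p = 0.0442). The call of PGR did not hold, and it was also lost with the replicate block and with the F12 and F11 arrays alone. FOXA2, a forkhead factor, had 121 and 125 in F12 cells, 181 and 175 in F11 cells and 131 and 127 in NS cells (log2 -0.53, adjusted p = 0.00297, and 0.0529 without F12 replicate 1). HOXC4, a homeobox factor, had 167 and 157 in F12, 308 and 265 in F11 and 169 and 161 in NS cells (log2 -0.82, adjusted p = 0.00241). Like SOX17, both had NS at or near F12 and stood high in F11. Of 16 surface antigens and mucins of ovarian cancer, 4 were higher (ALCAM, LYPD1, MAL and MUC4) and 3 lower (CD24, MUC16 and SLC34A2). These were 25% and 18.8%, against 3.84% and 4.35% of all genes. MUC16, the mucin that carries the CA125 antigen, had 1018 and 964 in F12, 1541 and 1588 in F11 and 1389 and 1516 in NS cells (log2 -0.66, adjusted p = 0.0024). MAL, a raft protein, had 5108 and 4942 in F12, 3317 and 2859 in F11 and 6289 and 6655 in NS cells (log2 0.71, adjusted p = 0.00412, and up to 0.0638 without an F12 array). KLK6, a kallikrein-related peptidase secreted by ovarian tumours, had 2826 and 2732 in F12, 1364 and 1579 in F11 and 2527 and 2441 in NS cells (log2 0.92, adjusted p = 0.00134), and KLK7 differed by 0.58 (adjusted p = 0.00281), whereas KLK11 was lower by -0.36 (adjusted p = 0.0217, and up to 0.176 without an F12 array), and the other 4 of 7 tested kallikreins were not called. HOXC4, MUC16, KLK6 and KLK7 held, and KLK6 had a probe near background that differed by 0.06 (adjusted p = 0.611).

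The shares of the smaller or mixed lists are to be read against 3.84% higher and 4.35% lower of all tested genes. YAP and TEAD genes had 5 of 25 tested members higher (20%) and 2 lower (8%), and p53 targets 5 of 28 (17.9%) and 2 (7.14%). S100 proteins had 3 of 13 higher (23.1%) and 1 lower (7.69%), and WNT signalling 4 of 30 (13.3%) and 3 (10%). Of the housekeeping lists, 2 of 52 cytosolic ribosomal protein genes were higher (3.85%) and 3 lower (5.77%), with a median log2 difference of -0.06. Of 68 respiratory chain genes 0 were higher and 3 lower (4.41%), with a median of -0.06. Reference genes had a median of 0.13, as large as that of the keratin list, with 9 of 13 positive and 1 called higher, PGK1 (log2 0.41 at its dimmer probe, adjusted p = 0.0258, and 0.22 at its brighter probe, adjusted p = 0.172).

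Single genes of other lists also held. AKR1B10, an aldo-keto reductase, was not above background in F11 cells (91.4 and 90.3) and had 164 and 164 in F12 and 145 and 155 in NS cells, at least 1.79-fold higher with F12 (adjusted p = 0.000584). TKT, the transketolase of the pentose phosphate pathway, had 1006 and 955 in F12, 1521 and 1645 in F11 and 983 and 1052 in NS cells (log2 -0.69, adjusted p = 0.00225). HES1, a repressor downstream of Notch, had 155 and 144 in F12, 241 and 251 in F11 and 179 and 176 in NS cells (log2 -0.72, adjusted p = 0.00134). DNMT3L, a cofactor of DNA methyltransferases, was higher at both probes, by 0.69 and 0.35 (adjusted p = 0.00134 and 0.0271). KCNF1, a silent potassium channel subunit, had 616 and 579 in F12, 1329 and 1375 in F11 and 525 and 537 in NS cells (log2 -1.18, adjusted p = 0.000327).

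Few proliferation genes passed the test, but most mitosis genes had a negative difference F12 minus F11. Of 45 tested genes of mitosis and the cell cycle limma called 2 lower (4.44%, against 4.35% of all genes), AURKA at -0.28 and CENPE at -0.25, and none higher. Neither call held, and the list had no call without either F12 array, 1 without either NS array, and 4 and 5 lower genes without F11 replicate 1 and 2. A negative difference was found in 39 of the 45 genes, with a median of -0.14, and at an unadjusted p under 0.05 there were 18 lower (40%, against 13.9% of all genes) and 0 higher (against 12.6%). None of 41 DNA replication genes was called by limma (4 higher and 1 lower by the unadjusted p), none of 25 homologous recombination and repair genes (0 higher and 6 lower) and none of 14 aminoacyl-tRNA synthetases (2 higher and 0 lower). MCM5, a subunit of the replicative helicase, had 371 and 346 in F12 cells, 307 and 303 in F11 cells and 269 and 301 in NS cells (log2 0.23, adjusted p = 0.131).

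For most called genes the NS arrays lay between the SHMT1 populations. Of the 1052 called genes, 656 (62.4%) had both NS arrays between the F12 and F11 arrays, 305 of the genes higher and 351 of those lower with F12, against 9.36% of all tested genes and 10.6% of the 5576 genes whose F12 and F11 arrays did not overlap without being called. The share rests on how genes were called, being 34.4% of genes with an unadjusted p under 0.05 and 40% with a block of crossed replicate numbers. The NS arrays overlapped F12 in 210 genes (20%, against 19.7% of all tested genes) and F11 in 100 (9.51%, against 21.9%), and lay below all SHMT1 shRNA arrays in 44 (4.18%, against 8.35%) and above them in 42 (3.99%, against 7.29%). With the F12 mean set to 0 and the F11 mean to 1, the NS mean of called genes had a median place of 0.37 (quartiles 0.18 and 0.58). It was nearer to F12 in 694 genes (66%) and nearer to F11 in 358 (34%), against 53.1% and 46.9% of all tested genes.

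Set against NS one by one, F11 had 246 genes higher (1.91%) and 242 lower (1.88%), and F12 had 45 higher (0.35%) and 72 lower (0.56%). These comparisons use the same NS arrays. Genes with NS in the middle therefore had opposite signs against it, and in some of them both differences passed. REG3G differed from NS by 0.94 in F12 (adjusted p = 0.00263) and by -1.07 in F11 (adjusted p = 0.000686). HP differed by -0.96 in F12 (adjusted p = 0.00263) and 0.64 in F11 (adjusted p = 0.00353), and SCD by -0.65 (adjusted p = 0.0143) and 1.06 (adjusted p = 0.00144). In others only 1 of the differences passed. F12 minus NS missed in MAG (-0.52, adjusted p = 0.171), SEMA3A (-0.51, adjusted p = 0.141) and SSX1 (0.20, adjusted p = 0.565). F11 minus NS missed in PNOC (-0.12, adjusted p = 0.468).

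**Figure D5:**
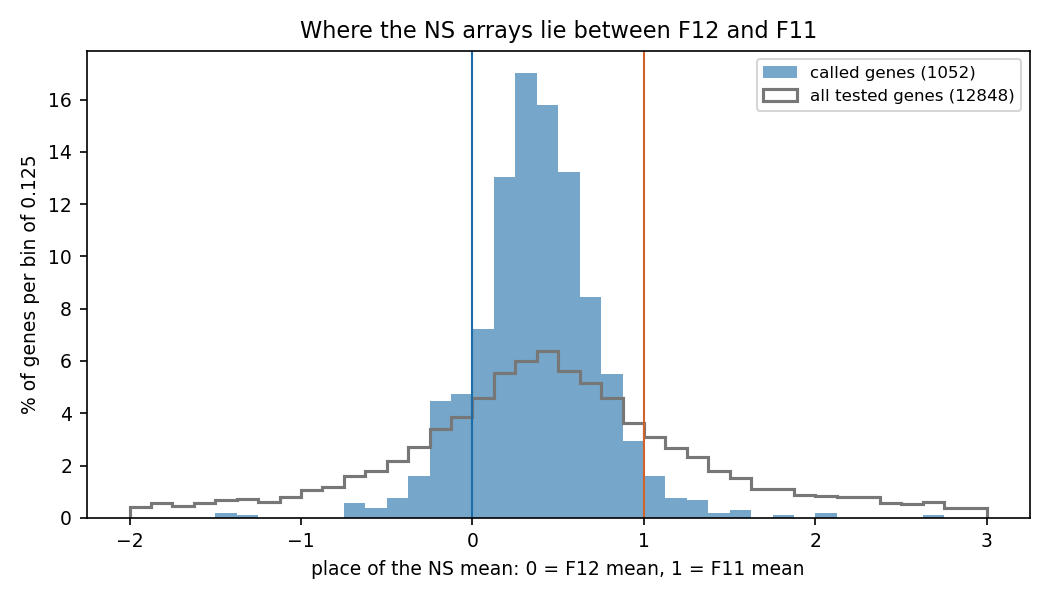
Place of the NS mean on a scale where 0 is the F12 mean and 1 the F11 mean, on the x axis, with the share of genes per bin on the y axis for the 1052 called genes (filled) and all 12848 tested genes (outline). The called genes peak between the 2 means with a median of 0.37, and 99.9% of called and 83.5% of all tested genes fall within the range drawn.

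Among the called genes, those in which both SHMT1 shRNAs lay on the same side of NS were a minority. Like the share with NS between, this rests on how genes were called. GFRA2, a receptor of the GDNF family, had 594 and 575 in F12 cells, 912 and 966 in F11 cells and 293 and 286 in NS cells, so that both SHMT1 shRNAs lay above NS and F12 less so (log2 -0.68, adjusted p = 0.00136). KCNF1 and GALNT9, given above, also had NS lowest, and so did DNAJC22, with 175 and 166 in F12, 105 and 105 in F11 and 102 and 95.6 in NS cells (log2 0.70, adjusted p = 0.00139). These places go by the order of the arrays alone. In GALNT9 the F12 arrays lay close to NS, and in DNAJC22 the F11 arrays did. COXFA4L3 had 1210 and 1149 in F12, 1878 and 1809 in F11 and 2185 and 2160 in NS cells (log2 -0.64, adjusted p = 0.00165), and TCEAL2 had 243 and 247 in F12, 149 and 157 in F11 and 278 and 277 in NS cells (log2 0.68, adjusted p = 0.00127). In these NS was highest. F12 alone differed in CLEC18B, with 162 and 167 in F12, 113 and 109 in F11 and 110 and 111 in NS cells (log2 0.56, adjusted p = 0.00225). F11 alone differed in SCGB1D2, a secretoglobin, with 81.6 and 87.7 in F12, 157 and 166 in F11 and 87.3 and 92.0 in NS cells, and since it was not above background in F12 cells it was at least 1.76-fold lower there than in F11 cells (adjusted p = 0.00062). All 6 of the genes with values in this paragraph held.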

How the data were processed

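Gene expression was measured in 6 samples of PEO4 cells on Illumina HumanHT-12 V4 arrays, 2 each with SHMT1 shRNA F12, SHMT1 shRNA F11 and NS shRNA, with groups taken from GEO's labels. Scanned arrays went through GenomeStudio and, for quantile normalization, lumi, and the authors deposited normalized intensities on a linear scale from 70.9 to 15895. Neither a background correction nor the version of lumi is given in the sources used here. The 12 columns of a non-normalized table were left out because none of their names matched a label.

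Intensities were log2-transformed. The background was taken as the mode of all values (85.5) plus the 95th percentile of their spread below it, which gave 91.6, and the 22962 probes above it on at least 2 arrays were tested. Of these, 17237 had 1 gene symbol in the platform annotation, 4 had several and 5721 had none, and the last 2 kinds were fitted but not named. All 3 groups were fitted with limma 3.58.1 in R 4.3.3 with 3 residual degrees of freedom, the contrast F12 minus F11 was tested two-sided, and the Benjamini-Hochberg adjustment ran across the 22962 probes. A gene was called if any of its probes had an adjusted p under 0.05 and is described at its brightest probe unless stated. Where neither array of a population was above background, the fold is a bound against the limit of 91.6. The number of arrays limits the precision.

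Named genes were SHMT1, in each direction the 12 genes of largest difference among called genes with separate arrays, up to 4 called members of each list by adjusted p (the member of lowest adjusted p where none was called), and 4 genes of each NS position. Other members were chosen after their values were seen. The comparison, the 48 gene lists and the motifs were chosen with earlier results of these data known. On simulated data with 200 of 22962 probes changed between F12 and F11, 2% of log2 changes of 0.25, 48% of 0.5, 92% of 1 and 100% of 2 were recovered. Of 125 calls, 4 were false. The simulated noise was independent between arrays, and fewer probes were changed than were called in the data (642 higher and 702 lower). These rates therefore need not hold for the real comparison. Replicate numbers did not pair the arrays of all 3 groups in the same way: replicate differences correlated at -0.31 between F12 and F11, -0.29 between F12 and NS and 0.46 between F11 and NS. Replicate differences were thus partly shared between groups. The main fit has no term for this shared part, and its source was not tested.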

Additional observations from a re-analysis of the deposited data

Results flagged for a closer look

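The effect of the SHMT1 shRNA differed between the hairpins, by the test of F12 minus F11 itself, in 493 genes that were higher and 559 that were lower with F12. In 656 of these genes the difference was of a kind where each F12 array lay on one side of the NS arrays and each F11 array on the other. How many of these genes passed against NS on both sides was not counted. Among the 24 genes of largest difference the NS arrays lay between in 20, all but SSX4, TOX2, SOX17 and FAM174B. The arrays gave no group large enough for a check of single outlying values.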

How the results depend on the processing

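The counts of 493 higher and 559 lower genes stayed within 1.5 times under no filter, a filter on all arrays, normexp, median centring, the moderated fit with trend and robust estimation, the F12 and F11 arrays alone and the brightest probe alone. With the replicate block, 395 and 445 genes were called, 793 of them among the 1052 in the same direction, but the F12 numbers ran opposite to those of the other groups. A block with the F12 numbers exchanged, added after seeing the data, called 1080 and 1199. A 1.5-fold limit left 99 and 125, and an unadjusted p gave 1620 and 1785. Leaving out 1 array gave 92 to 645 higher and 103 to 772 lower genes, lowest without an F12 array, where the lone array is assumed to vary like the other groups. NS lay between in 62.4% of called genes, 34.4% with an unadjusted p and 40% with the crossed block. The SHMT1 difference ranged from 0.36 to 0.59 in the fits that left out 1 array, with 0.49 and 0.46 without F12 replicate 1 and 2, where the call was lost. HLA-F at its brighter probe, not called, changed sign without F11 replicate 2, and ranged from -0.25 to 0.0199 in the fits that left out 1 array. The other named genes kept their sign in each alternative run. The cause of these shifts was not tested. With 2 arrays a group, 48% of simulated log2 changes of 0.5 were recovered.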
